A study of Mus musculus with 8 samples.

Results

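Microtubules are polymers of alpha- and beta-tubulin that run the length of an axon. Kinesins are motors most of which walk toward the growing plus end, away from the neuron's cell body, and cytoplasmic dynein 1 walks back toward it. Sensory neurons of the dorsal root ganglia, the clusters of neuron cell bodies beside the spinal cord, have long axons and depend on this traffic for the delivery of vesicles, mitochondria and signals. The tubulins, kinesins, kinesin light chains and cytoplasmic dynein subunits were described here in ganglia with and without Tmem184b, a gene for a transmembrane protein. They were selected by a rule on gene symbols and numbered 78 of the 40800 gene identifiers in the deposited table: 20 tubulins, 41 kinesins and kinesin light chains, and 17 dynein genes.

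RNA sequencing was done on whole ganglia of adult C57BL/6 mice aged 6 months, 4 of them wild type (numbered 1, 3, 4 and 8 in the labels). The other 4 (numbered 1, 2, 3 and 4) carried a Tmem184b gene trap on both copies of the gene, on a C57BL/6 background. Such an insertion splices into the transcript and cuts it short. The labels name no Cre or cell-type promoter and state neither sex nor litter. Ganglia hold neurons of many classes, glia, vessels and immune cells, so a lower level can mean fewer cells of a type or less RNA per cell, and these cannot be told apart.

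Levels are moderated log2 CPM, as the authors deposited them: reads scaled to a common library total (CPM), with a small prior count, on a logarithm to base 2. Library totals implied by those values were 6183618 to 7983821 reads. Tmem184b itself was at 7.36 to 7.51 log2 CPM across wild types, against 2.47 to 3.10 across mutants. All 10 pan-neuronal marker genes were detected, with summed levels of 6672 to 7279 CPM across wild types, against 6285 to 6778 CPM across mutants. Of these, 8 had a difference below 0 and 2 were called lower, Syt1 (-0.25, limma adjusted p = 0.0146) and Avil (-0.22, adjusted p = 0.0203), with a median of -0.14. Over all 15030 tested genes 64.4% had a difference above 0. Among other marker lists, NP1 neurons (nonpeptidergic nociceptors) had 7 of 7 genes called lower, with sums of 2188 to 2414 CPM against 1170 to 1743 CPM. NP3 neurons (itch neurons that make somatostatin) had 6 of 7 called lower, with sums of 123 to 169 CPM against 32.3 to 39.8 CPM. Of all tested genes 2.64% were called lower and 2.81% higher. The lists were chosen with earlier results of these data known. Other neuron classes had no call: peptidergic neurons 0 of 5, with a median of -0.0011, and large neurofilament neurons 0 of 8, all 8 above 0. Immune cells and fibroblasts each had 1 gene called higher, of 7 and 6 tested. Satellite glia had 3 of 7 called higher, with sums of 2120 to 2589 CPM against 2419 to 3333 CPM, and myelinating Schwann cells 2 of 7, with 2432 to 3186 CPM against 2874 to 3454 CPM. Skeletal muscle genes summed to 4.13 to 38.5 CPM in wild types and 12.5 to 176 CPM in mutants. The part of these cell types in the results below was not tested.

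A gene was called when its limma p-value, adjusted by the Benjamini-Hochberg method over all 15030 tested genes, was under 0.05. Testing required a log2 CPM above 0 in at least 4 of the 8 samples, and 63 of the 78 genes passed. Of the 63, 2 were called, Tubb2b and Kif3b, both lower in the mutant, and 0 were called higher. Among all tested genes 5.46% were called, 2.64% lower and 2.81% higher, so the share called in these families (3.17%) was near that of genes at large. An unadjusted p under 0.05 was reached by 14 of the 63 genes (22.2%), against 21.3% of all genes. The median difference was 0.018 over the 17 tested tubulins, -0.0029 over the 34 tested kinesins and light chains, and -0.0083 over the 12 tested dynein genes, against 0.066 over all tested genes.

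**Figure D1:**
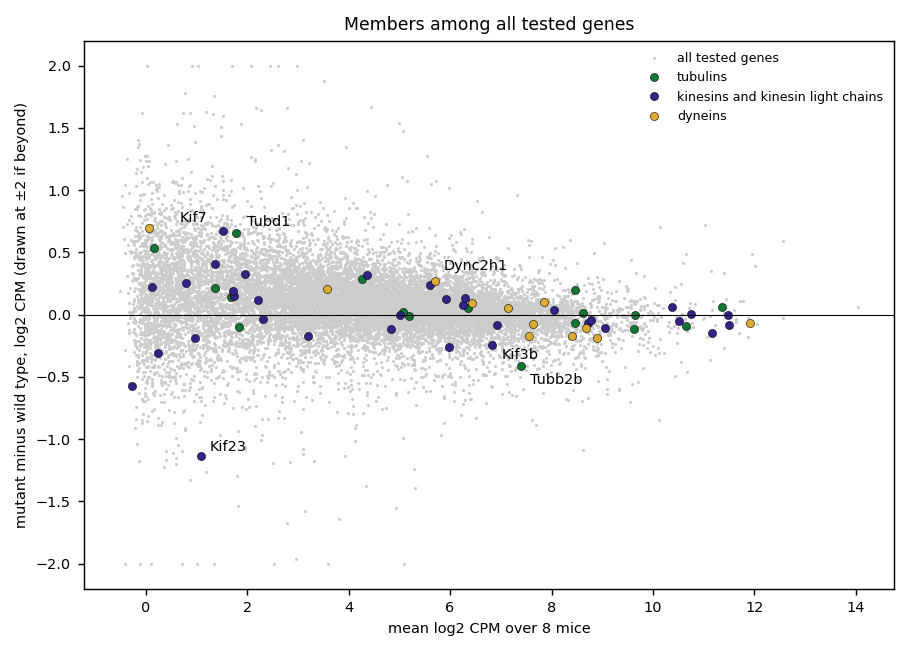
Each grey point is 1 of the 15030 tested genes, placed by its mean log2 CPM over the 8 samples and its difference, mutant minus wild type; coloured points are the 63 tested tubulins, kinesins and dyneins. The coloured points lie within the cloud of all genes at every level. Tubb2b, at -0.41, is on its lower side, where other genes of like level lie lower still, such as P2rx3 at -0.64. Kif23, at -1.14, is among genes of few reads. Differences of other genes beyond the axis limits are drawn at the limits.

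Tubb2a and Tubb2b encode the class II beta-tubulins, isotypes typical of neurons. Their sequences are shown because reads of this pair are told apart only by them. In the GENCODE M21 annotation (GRCm38) Tubb2b (ENSMUSG00000045136) lies on chromosome 13 at 34126748 to 34130466, and Tubb2a (ENSMUSG00000058672) at 34074274 to 34078007, both on the minus strand, with no annotated gene overlapping either. Both coding sequences have 1338 bases, of which 47 differ (96.5% identity). The C-terminal tail is where beta-tubulin isotypes differ most. Over the last 60 coding bases, stop codon included, Tubb2b differs from Tubb2a at 3 places, shown in capitals. Read in frame, none of these 3 changes the encoded amino acid, so both genes encode the same tail over this stretch. The tail of Tubb3, the neuron-specific class III isotype, and that of Tubb5, a broadly expressed class I isotype, are shown in lower case for comparison.
Tubb2a: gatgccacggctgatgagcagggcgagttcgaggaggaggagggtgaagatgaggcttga
Tubb2b: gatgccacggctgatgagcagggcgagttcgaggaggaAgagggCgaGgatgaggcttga
Tubb3: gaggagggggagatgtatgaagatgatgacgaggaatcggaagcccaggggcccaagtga
Tubb5: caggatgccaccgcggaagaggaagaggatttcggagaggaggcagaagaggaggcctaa

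The class II pair is most unlike in coding bases 112 to 171, counted from the start codon, where 10 of 60 bases differ. Capitals mark them in each gene, and reads over this stretch can be assigned by sequence.
Tubb2a, bases 112 to 171: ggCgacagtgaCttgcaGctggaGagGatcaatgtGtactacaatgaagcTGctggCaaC
Tubb2b, bases 112 to 171: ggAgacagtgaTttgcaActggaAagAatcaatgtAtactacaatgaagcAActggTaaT

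Reads were 150 bases long per the labels' protocols. Of the 2033 windows of 150 bases in the longest coding Tubb2b transcript (2182 bases), 20.1% occur letter for letter in a transcript of another gene, Tubb2a or its pseudogene Tubb2a-ps2. All of these are among the 1189 windows inside the coding sequence, 408 of which are shared. None of the 574 windows inside the untranslated stretch of 723 bases that follows the stop codon is shared. For Tubb2a 27.9% of windows are shared.

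Tubb2b was lower in every mutant than in every wild type. Its level was 7.55, 7.66, 7.52 and 7.69 log2 CPM across wild types (1, 3, 4 and 8, in this order throughout), against 7.17, 7.29, 7.26 and 7.05 across mutants 1 to 4. The groups did not overlap, and mutant 4 was the lowest. The mean went from 195 ± 10.8 CPM to 146 ± 11 CPM (SD, n = 4 each), 75.2% of wild type. On the log2 scale it was lower by a difference of -0.41 (SE 0.065, 95% interval -0.55 to -0.27, limma adjusted p = 0.00236). It stayed between -0.45 and -0.36 when any sample was left out, and was called in 19 of 20 alternatives, the exception being a fit without the mean-variance trend (adjusted p = 0.0606).

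The near copy Tubb2a was not called. Its level was 8.49, 8.57, 8.40 and 8.48 log2 CPM across wild types, against 8.35, 8.51, 8.36 and 8.46 across mutants. The groups overlapped, and the difference was -0.06 (95% interval -0.19 to 0.06, limma adjusted p = 0.555). Within each sample the log2 ratio of Tubb2b to Tubb2a was -0.94, -0.92, -0.88 and -0.79 across wild types, against -1.18, -1.22, -1.11 and -1.41 across mutants. A single factor applied to a whole library leaves this ratio unchanged. Ratios were not recomputed with the GC trend removed or under quantile normalization, which move genes by different amounts. The ratio of Tubb2b to Tubb2a differed by -0.35, and those of Tubb2b to Tubb3 and to Tubb5 by -0.47 and -0.32. For each of these the groups did not overlap, with an exact two-sided permutation p of 0.0286, the smallest that 4 against 4 samples allow. Adjusted over the 10 ratios computed in this work, all of them chosen after the values were seen, p was 0.0476. The adjustment does not cover that choice, here or for the ratios below.

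The other beta-tubulins were not called. Per kilobase of annotated exon, which allows genes to be compared, Tubb3 was the most abundant of all 63 genes at 1388 ± 95.2 CPM per kb in wild-type ganglia against 1446 ± 95.8 in mutant ganglia (SD, n = 4). Tubb5 followed at 497 ± 28.5 and 467 ± 21.1 CPM per kb, then Tubb4a at 369 ± 29.5 and 342 ± 30.1, Tubb2a at 223 ± 10.8 and 213 ± 11.5, Tubb4b at 189 ± 17.4 and 191 ± 17.5, and Tubb2b at 84.8 ± 4.71 and 63.8 ± 4.81. The order of Tubb2a and Tubb4b depended on the length used: per kilobase of the longest coding transcript, an alternative added after seeing the data, Tubb4b was at 248 ± 22.8 and Tubb2a at 223 ± 10.8 in wild type. The other positions in this order were the same with either length. The differences on the log2 CPM scale were 0.06 for Tubb3 (95% interval -0.08 to 0.20), -0.09 for Tubb5 (-0.21 to 0.04), -0.11 for Tubb4a (-0.26 to 0.04) and 0.01 for Tubb4b (-0.15 to 0.17). Tubb6, a class V isotype, was at 17.2 ± 2.60 CPM in wild-type ganglia against 20.9 ± 1.48 CPM in mutant ganglia, a difference of 0.29 that was not called (limma adjusted p = 0.164). Tubb1, the isotype of platelets and megakaryocytes, had at most 11 reads in any library.

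The make-up of the 8 beta-tubulins was also expressed as shares of their summed reads. All beta-tubulin reads together came to 6037 ± 372 CPM in wild-type ganglia against 5928 ± 285 CPM in mutant ganglia, so the sum was within the spread of samples. Tubb2b made up 3.23% ± 0.12 of them in wild-type ganglia against 2.48% ± 0.28 in mutant ganglia, and Tubb3 42.9% ± 0.72 and 45.5% ± 0.94 (SD, n = 4 each). The Tubb3 share was 42.0% to 43.7% in wild types and 44.9% to 46.9% in mutants, so these groups did not overlap although the Tubb3 level did. Shares of 1 pool are tied to each other, and no test was made on them.

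**Figure D2:**
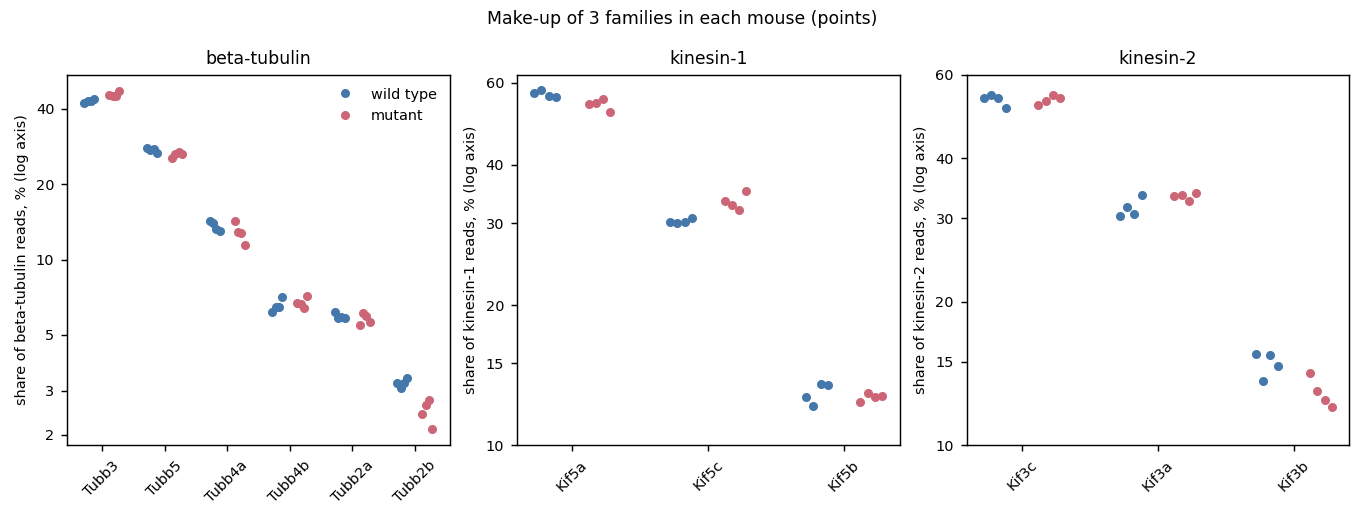
Share of the reads of a family that fell on each gene, in percent on a log axis, for beta-tubulins, kinesin-1 heavy chains and kinesin-2 motors; each point is 1 sample, blue for the 4 wild types and red for the 4 mutants. Tubb2b fills 3.08% to 3.37% of beta-tubulin reads in wild types and 2.11% to 2.75% in mutants, and Kif5c 30.1% to 30.7% of kinesin-1 reads against 31.9% to 35.2%.

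Alpha-tubulins showed no call in any of 5 tested genes. Tuba1a, the main alpha-tubulin of neurons, was at 445 ± 32.6 CPM per kb in wild-type ganglia against 445 ± 36.1 in mutant ganglia (SD, n = 4), and its difference had a 95% interval of -0.14 to 0.14 on the log2 scale. Tuba4a does not encode the C-terminal tyrosine that most other alpha-tubulins carry. Its level was 8.30, 8.58, 8.22 and 8.34 log2 CPM across wild types, against 8.55, 8.56, 8.37 and 8.75 across mutants. These overlap, and the difference of 0.20 was not called (limma adjusted p = 0.181). The ratio of Tuba4a to Tuba1a, in contrast, separated the groups, at -1.34 to -1.20 in wild types and -1.17 to -1.03 in mutants (difference 0.20, exact two-sided permutation p = 0.0286, adjusted over 10 ratios 0.0476). This ratio was likewise chosen after the values were seen, and Tuba1a reads are less certain than most. Of the 150-base windows of Tuba1a 54.7% occur in another gene's transcript, and of Tuba1b and Tuba1c 57.9% and 46.7%, while Tuba4a shares none. Tuba4a and Tuba1a each overlap 1 annotated gene, Stk16 on the other strand and Gm49450 on the same strand. Tuba1b, Tuba1c and Tuba8 differed by 0.05, -0.10 and 0.21. Tuba3a, Tuba3b and Tubal3 had at most 1, 3 and 0 reads in a library and were not tested.

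The tubulins that do not build the microtubule wall were at low levels. Tubg1 and Tubg2, gamma-tubulins that seed new microtubules, differed by -0.01 (95% interval -0.24 to 0.21) and 0.02 (-0.20 to 0.24). Tubd1 and Tube1 encode delta- and epsilon-tubulin, proteins of centrioles. Tubd1 was at 1.58, 1.42, 1.70 and 1.13 log2 CPM across wild types, against 1.78, 2.69, 1.75 and 2.24 across mutants. All mutants were above all wild types, by a narrow margin and on 15 to 20 reads across wild types, against 20 to 38 across mutants. Its difference of 0.66 (SE 0.24) was not called (limma adjusted p = 0.128). Tube1 differed by 0.14 (95% interval -0.38 to 0.66).

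**Figure D3:**
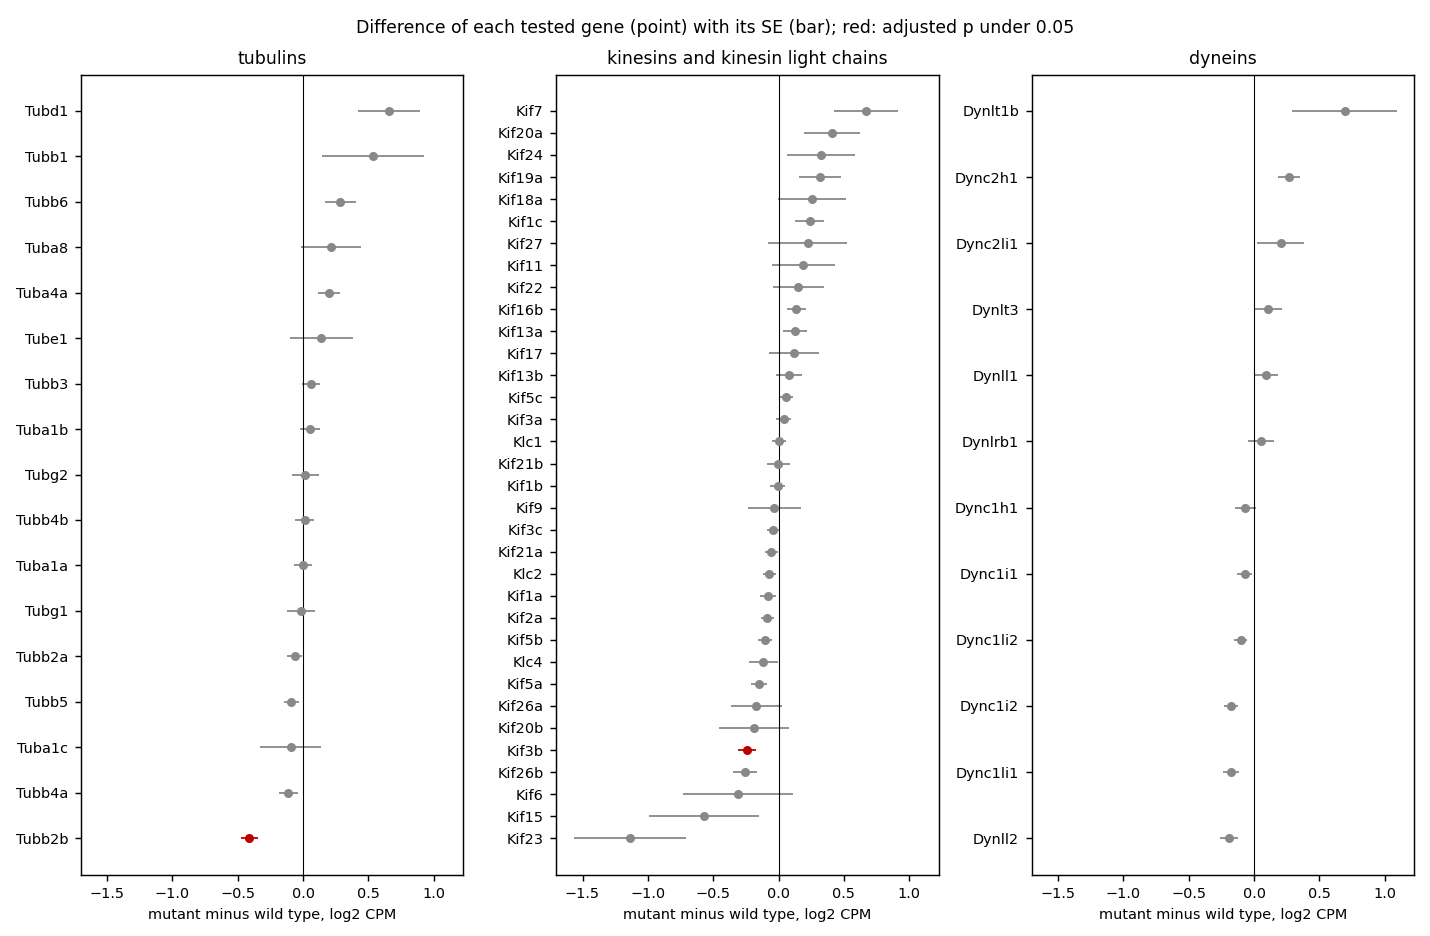
Difference between genotypes for each of the 63 tested genes, mutant minus wild type in log2 CPM, with its SE as a bar, in 3 panels for tubulins, kinesins with light chains, and dyneins. Tubb2b and Kif3b, in red, are the genes with an adjusted p under 0.05, and long bars belong to genes of few reads such as Kif23, Kif15 and Dynlt1b.

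Among the kinesins, 34 of 41 genes were tested and Kif3b was called. Kif3b is a motor subunit of kinesin-2, which with Kif3a and the adaptor Kifap3 forms a trimer that carries cargo along axons and builds cilia. Its gene (ENSMUSG00000027475) lies on chromosome 2 at 153291413 to 153333390 on the plus strand, with no annotated overlap and no 150-base window shared with another gene. Kif3b was at 6.98, 6.89, 6.97 and 6.96 log2 CPM across wild types, against 6.88, 6.73, 6.66 and 6.57 across mutants. All mutants were below all wild types, but mutant 1 lay just under wild type 3. The mean was 124 ± 3.61 CPM in wild-type ganglia against 105 ± 9.40 CPM in mutant ganglia (SD, n = 4), 84.7% of wild type. The difference was -0.24 (SE 0.067, 95% interval -0.39 to -0.10, limma adjusted p = 0.0478), close to the threshold. It kept its direction in all 20 alternatives and was called in 7. The call was lost without wild type 1, 3, 4 or 8 or mutant 2, 3 or 4 (limma adjusted p 0.0711 to 0.127). It was also lost with Xist as a covariate (0.0556), with quantile normalization (0.0548), with no filter on low values (0.0578), without the variance trend (0.160) and in 2 fits to 6 of the samples (0.107 and 0.139).

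The partners of Kif3b were not called. Kif3a differed by 0.04 (95% interval -0.08 to 0.16) and Kifap3 by -0.04 (SE 0.055, limma adjusted p = 0.701). Kif3c, which can take the place of Kif3b beside Kif3a, differed by -0.04 (-0.15 to 0.07). The log2 ratio of Kif3b to Kif3a was -0.96, -1.21, -0.98 and -1.19 across wild types, against -1.23, -1.36, -1.39 and -1.49 across mutants, a difference of -0.28 with groups that did not overlap (exact two-sided permutation p = 0.0286, adjusted over 10 ratios 0.0476). Against Kif3c the ratio differed by -0.20 and the groups overlapped (p = 0.0571, adjusted 0.0816, exact permutation). Both ratios were chosen after the values were seen. Kif17, a further kinesin-2 motor, had at most 40 reads and differed by 0.12.

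Kinesin-1 carries vesicles, mitochondria and neurofilaments with Kif5 heavy chains and Klc light chains. No member was called. Kif5a, the heavy chain specific to neurons, was at 11.25, 11.34, 11.16 and 11.22 log2 CPM across wild types, against 11.08, 11.08, 11.21 and 10.99 across mutants, which overlapped, with a difference of -0.15 (95% interval -0.28 to -0.02, limma adjusted p = 0.181). Kif5c, also neuronal, differed by 0.06 (-0.05 to 0.17) and the ubiquitous Kif5b by -0.10 (-0.21 to 0.00). The log2 ratio of Kif5a to Kif5c was 0.92, 0.94, 0.90 and 0.86 across wild types, against 0.69, 0.73, 0.79 and 0.56 across mutants, with a difference of -0.21 (exact two-sided permutation p = 0.0286, adjusted over 10 ratios 0.0476). This ratio too was chosen after the values were seen. Kif5a made up 56.7% ± 0.90 of kinesin-1 heavy chain reads in wild-type ganglia against 53.9% ± 1.40 in mutant ganglia. Klc1 was the light chain with the highest level, at 421 ± 11.5 CPM per kb in wild-type ganglia against 422 ± 14.9 in mutant ganglia, and its difference was bounded by -0.11 and 0.12. Klc2 and Klc4 differed by -0.07 and -0.12, and Klc3 had at most 4 reads.

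Kinesin-3 motors move synaptic vesicle precursors and endosomes. Kif1a and Kif1b, the most abundant of them, differed by -0.08 (95% interval -0.22 to 0.05) and -0.0047 (-0.13 to 0.12). The less abundant Kif1c, Kif13a, Kif13b and Kif16b differed by 0.24, 0.13, 0.08 and 0.13, and none was called, although Kif1c was without wild type 4 (0.35, limma adjusted p = 0.0445). Of the kinesin-4 family, Kif21a differed by -0.05 (-0.17 to 0.06) and Kif21b by -0.0011 (-0.19 to 0.18). Kif7, a regulator at the tip of cilia, had 11 to 18 reads across wild types, against 18 to 31 across mutants, with a difference of 0.67 that was not called (limma adjusted p = 0.126), and Kif27 differed by 0.22 on at most 8 reads. Kif2a, a kinesin-13 that takes microtubules apart, was at 6.98, 7.0, 6.91 and 6.97 log2 CPM across wild types, against 6.90, 6.86, 6.90 and 6.86 across mutants. All mutants lay below, and the difference of -0.09 was not called (95% interval -0.20 to 0.03, limma adjusted p = 0.370). Other annotated genes overlap Kif2a, and also Kif20a and Dync1li2 below. Of the genes used in ratios, Tubb3, Tuba1a, Kif3c and Kif5c overlap an annotated gene on the same strand. Whether counting used the strand is not given in the sources used here. Kif24, also a kinesin-13, differed by 0.32.

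Kif26a and Kif26b belong to a divergent kinesin-11 family. Kif26b differed by -0.26 (95% interval -0.46 to -0.06) and Kif26a by -0.17, and neither was called (limma adjusted p = 0.123 and 0.669), but Kif26b was without mutant 3 (-0.33, adjusted p = 0.0426). Kif19a, a kinesin-8 of cilia, differed by 0.32 (adjusted p = 0.276), and Kif6 and Kif9, of kinesin-9, by -0.31 and -0.03.

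Kinesins of the mitotic spindle were near the limit of detection. Kif11, Kif15, Kif18a, Kif20a, Kif20b, Kif22 and Kif23 had at most 31, 9, 14, 18, 18, 24 and 29 reads in a library. Kif20a was at 1.13, 0.84, 1.49 and 1.21 log2 CPM across wild types, against 1.57, 1.6, 1.61 and 1.52 across mutants, the groups just apart, with a difference of 0.41 that was not called (limma adjusted p = 0.298). Kif23, which organizes the midzone of the dividing cell, had 14 to 29 reads across wild types, against 12, 19, 2 and 5 reads across mutants 1 to 4. Mutants 3 and 4 were the lowest, mutant 1 lay just under the wild types, and mutant 2 lay within their range. The difference of -1.14 (SE 0.43) was not called (limma adjusted p = 0.139), but was without mutant 2 (-1.55, adjusted p = 0.0396). Kif11, Kif15, Kif18a, Kif20b and Kif22 differed by 0.19, -0.57, 0.26, -0.19 and 0.15. Markers of dividing cells summed to 10.3 to 12 CPM in wild types and 8.93 to 14.6 CPM in mutants. Of this list 4 genes were tested, all 4 had a difference above 0, and 0 were called. Mki67 had 35 to 63 reads in a library, whereas Cdk1 and Ccnb1 had no more than 7 and 1. Kif2c, Kif4, Kif14 and Kif18b had at most 6, 7, 5 and 2 reads and were not tested, and Kif2b and Kif12 had 0 reads in every library.

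Cytoplasmic dynein 1 is built from the heavy chain Dync1h1, which is the motor, intermediate chains Dync1i1 and Dync1i2, and light intermediate chains Dync1li1 and Dync1li2, which grip cargo adaptors. All 5 genes had a difference below 0, from -0.17 to -0.07, against 5346 of all 15030 tested genes, and none of the 5 was called. The 10 pan-neuronal markers had a median difference of -0.14, and their part in this was not tested. Dync1i2 was at 8.40, 8.49, 8.53 and 8.51 log2 CPM across wild types, against 8.22, 8.36, 8.32 and 8.33 across mutants, with a mean of 358 ± 14.3 CPM against 317 ± 12.8 CPM (SD, n = 4). All mutants were below, and the difference was -0.17 (95% interval -0.29 to -0.06, limma adjusted p = 0.0693). Dync1li1 was at 7.75, 7.61, 7.66 and 7.56 across wild types, against 7.51, 7.52, 7.51 and 7.35 across mutants, again without overlap, with a difference of -0.17 (-0.30 to -0.05, adjusted p = 0.108). Dync1li2 was at 8.67, 8.71, 8.76 and 8.80 against 8.61, 8.59, 8.67 and 8.66, where the highest mutant and the lowest wild type nearly met (difference -0.10, adjusted p = 0.255). The motor subunit Dync1h1 differed by -0.07 (-0.24 to 0.10), and the groups overlapped, as they did for Dync1i1 at -0.07 (-0.19 to 0.05).

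Across the 63 genes, groups did not overlap for 8 (12.7%), 6 with all mutants below and 2 with all mutants above, against 12.4% of all tested genes, 4.92% below and 7.5% above. The dynein calls depended on scaling. Of all calls in the deposited values 51.6% were higher, and this share was 22.4% with samples centred on their medians, 29.7% with the GC trend removed and 39.1% under quantile normalization. Median centring moved the median difference of all genes from 0.066 to -0.026, and 5 members were then called lower, against 4.7% of all tested genes. These were Tubb2b (-0.50, limma adjusted p = 0.00122), Kif3b (-0.34, 0.0162), Dync1i2 (-0.27, 0.0177), Dynll2 (-0.28, 0.0436) and Dync1li1 (-0.27, 0.0438). All 5 subunits of dynein 1 stayed below 0 with the GC trend removed and under quantile normalization. Median centring lowers every difference by the same amount, so it could not have changed their sign. With the GC trend removed Dync1i2 was also called (-0.26, limma adjusted p = 0.0108). Within samples, the ratios of Dync1i2 to Dync1i1, of Dync1i2 to Dync1h1 and of Dync1li1 to Dync1li2 differed by -0.10, -0.11 and -0.07, and none separated the groups (exact two-sided permutation p = 0.0857, 0.314 and 0.429, adjusted over 10 ratios 0.107, 0.349 and 0.429).

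**Figure D4:**
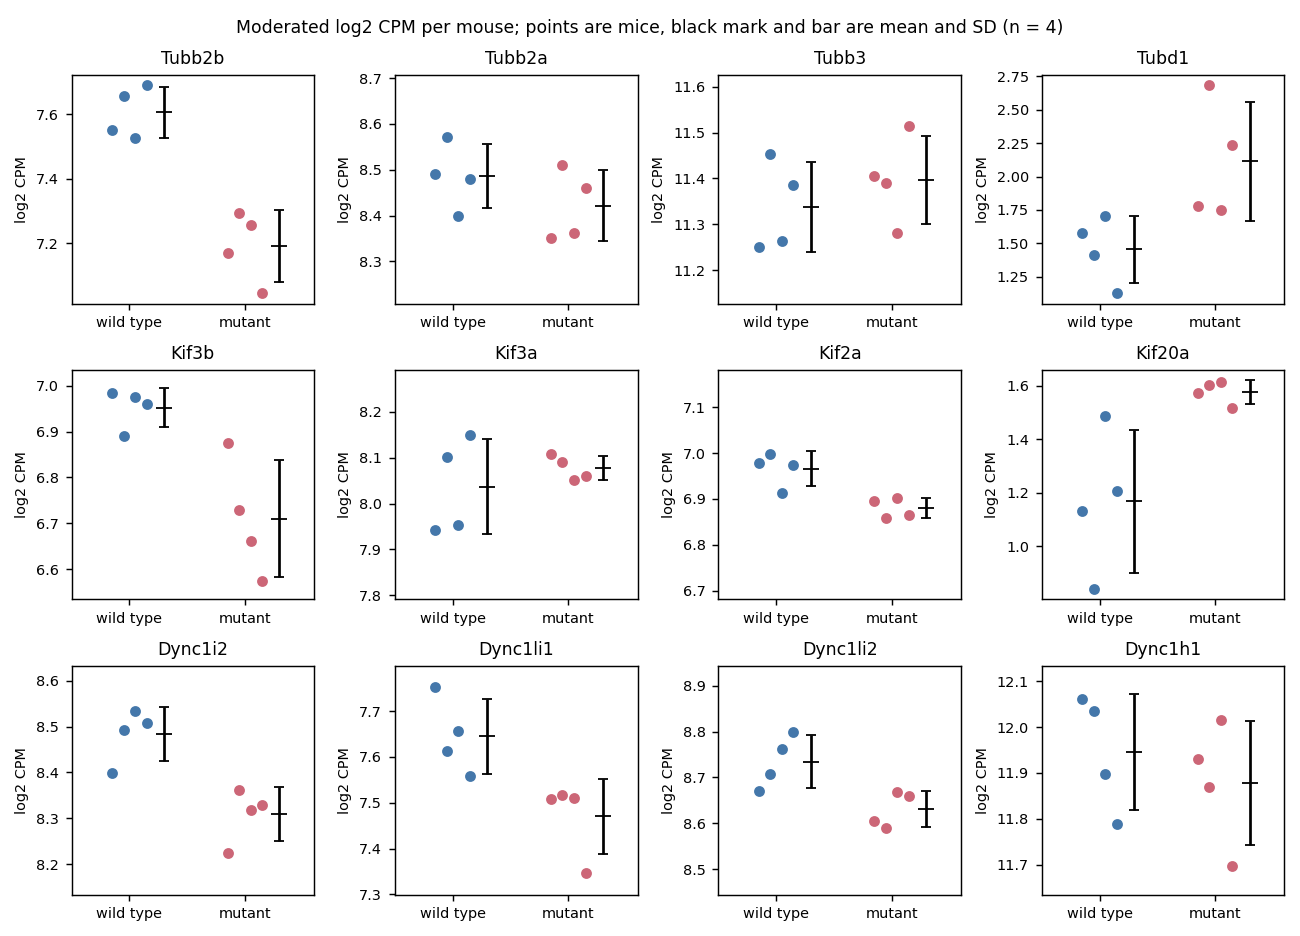
Moderated log2 CPM of 12 genes in each sample, wild types 1, 3, 4 and 8 in blue and mutants 1 to 4 in red from left to right, with the mean and SD (n = 4) in black; each panel has its own axis. Tubb2b, Kif3b, Kif2a, Dync1i2, Dync1li1 and Dync1li2 have every mutant below every wild type and Tubd1 and Kif20a every mutant above, whereas Tubb2a, Tubb3, Kif3a and Dync1h1 overlap.

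Cytoplasmic dynein 2 runs inside cilia. Its heavy chain Dync2h1 was at 5.58, 5.40, 5.76 and 5.53 log2 CPM across wild types, against 5.79, 5.87, 5.95 and 5.74 across mutants. Only wild type 4 reached the range of the mutants, and the difference of 0.27 (95% interval 0.09 to 0.44) was not called (limma adjusted p = 0.0741) but was without wild type 4 (0.33, adjusted p = 0.0269). Its light intermediate chain Dync2li1 differed by 0.20 (-0.18 to 0.58). Markers of ciliated cells summed to 49.4 to 59.0 CPM in wild types and 56.3 to 61.6 CPM in mutants. All 3 tested genes had a difference above 0, and 0 were called. Foxj1 had 253 to 381 reads in a library, against at most 53 for any other gene of this list. Tekt1, Pifo and Dnaic1 had at most 2, 4 and 5 reads and were not tested.

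Dynein light chains bind the intermediate chains and also serve outside dynein. Dynll2, the more abundant of the LC8 pair per kilobase, was at 188 ± 15.6 CPM per kb in wild-type ganglia against 164 ± 12.4 in mutant ganglia (SD, n = 4), a difference of -0.19 (95% interval -0.34 to -0.04, limma adjusted p = 0.122). Its partner Dynll1 differed by 0.09 (-0.10 to 0.29), Dynlrb1 by 0.05 (-0.16 to 0.26) and Dynlt3 by 0.10 (-0.13 to 0.34). The Dynlt1 copies on chromosome 17 could not be resolved: Dynlt1a, Dynlt1b, Dynlt1c and Dynlt1f share 35.6%, 80.5%, 80.9% and 75.9% of their windows with other genes and had at most 5, 9, 4 and 6 reads. Of these Dynlt1b alone was tested, with a difference of 0.69 (SE 0.40). The pseudogene Dynlt1-ps1 and Dynlrb2 had at most 4 and 2 reads.

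Genes that work with these families were read from 9 lists of 203 genes, 189 of them tested. Of the 189, 4 were called higher and 7 lower, 5.82% in all, which is near the 5.46% of genes at large. Microtubule-associated and end-binding proteins held 6 of the 11 calls among 44 tested, and their median difference was -0.06. The largest was in Dcx, doublecortin, a microtubule-binding protein of young and migrating neurons. Dcx went from 3.65 ± 0.08 to 2.53 ± 0.37 log2 CPM (SD, n = 4), on 27 to 103 reads over all libraries (difference -1.12, SE 0.17, limma adjusted p = 0.00210). Ckap5, a microtubule polymerase, Dpysl3, a collapsin response mediator, and Clip3, a CAP-Gly protein, fell by 0.22, 0.19 and 0.30 on the log2 scale (adjusted p = 0.0256, 0.0437 and 0.0489). Dclk2, a doublecortin-like kinase, and Tacc1, a coiled-coil protein, rose by 0.30 and 0.29 (adjusted p = 0.0256 and 0.0174).

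Cargo adaptors of kinesin had 0 genes called higher and 2 lower of 24 tested. Fez1, an adaptor of Kif5, differed by -0.23 (limma adjusted p = 0.0293), and Arl8a, a small GTPase that links lysosomes to kinesin, by -0.35 (adjusted p = 0.0147). In dynactin, the activator of dynein, 1 of 12 tested genes was called. This was Actr1b, an actin-related protein of its filament, at 8.57 ± 0.04 log2 CPM in wild-type ganglia against 8.33 ± 0.04 in mutant ganglia (difference -0.24, adjusted p = 0.0118). Stard9, a mitotic kinesin outside the symbol rule, rose by 0.50 (adjusted p = 0.0199), and the axonemal heavy chain Dnah8 by 0.85 (adjusted p = 0.00428) on 75 to 167 reads. No gene was called among 19 tested dynein adaptors, 26 tubulin modifying enzymes, 22 folding factors or 24 gamma-tubulin complex and severing proteins. An unadjusted limma p under 0.05 was reached by 5, 7, 1 and 2 of these, against 21.3% of all tested genes.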

How the data were processed

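Total RNA of dorsal root ganglia from 4 wild-type and 4 Tmem184b gene-trap mice was read as single-end 150-base Illumina libraries, per the labels' protocols. The submitters' processing notes name Salmon 0.11.1, DESeq2 and genome build mm9, with no role or order; strand use is not given in the sources used here. Moderated log2 CPM values came in a single table deposited by the authors, beside a deposited GC percent for each gene. It had 41422 lines and 40800 identifiers; the 402 listed more than once carried equal values and were used once. Columns were matched to samples by genotype and number in their names. The names also begin with another number, which falls in a separate range for each genotype. A difference tied to that number cannot be told apart from one of genotype.

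Undoing the logarithm and the prior (2 reads on average, floor -1.79 log2 CPM) gave whole reads for 100% of values, within 0.01 read. Library totals were 6183618 to 7983821 reads. The series' text names separate mice, and pairs of the same group differed by more than sampling noise (chi-square over degrees of freedom 2.59 to 6.86, 12652 genes).

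limma 3.58.1 (R 4.3.3, lmFit, eBayes with trend, two-sided, no covariate) was fitted to all tested genes. The same fit was run on simulated reads of independent samples with 1 fixed spread, a simpler setting than these data. Ratios within samples were compared by exact permutation over 70 assignments. Fold changes on the moderated scale understate changes of low genes. All 78 genes were found by identifier in GENCODE M21 (GRCm38), which gave positions, exon lengths and transcripts and is not the submitters' build. Members and lists were chosen with earlier results of these data known. Alternatives covered scaling, filters, the variance model, voom on the recovered reads (415 genes higher, 399 lower), Xist, GC, a replicate block and leaving out each sample. Named were called or non-overlapping members with every sample's value, the most abundant of each family, all other tested members with their difference, untested members with their highest reads, and called list genes. Tables used Python 3.11.15, numpy 2.4.6, pandas 2.3.3, scipy 1.17.1 and matplotlib 3.10.9.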

Additional observations from a re-analysis of the deposited data

Results flagged for a closer look

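Of 126 sets of 4 values (each tested gene in each genotype), 3 held a sample well outside the rest, and about 6.3 would by chance alone. Dync1li1 was at 7.35 log2 CPM in mutant 4 against 7.51 to 7.52 in the other mutants. Kif3c was at 8.88 in wild type 3 against 8.76 in the other wild types. Kif13a was at 5.84 in mutant 3, from 370 reads, against 6.02 to 6.06 in the other mutants.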

How the results depend on the processing

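Direction held in every alternative for 42 of the 63 tested members, and 9 were called in at least 1. Counts are given as higher and lower. Among all genes they were 423 and 397 as reported, 204 and 706 under median centring, 256 and 606 with the GC trend removed, 67 and 75 without the variance trend, and 876 and 612 at an adjusted p under 0.1, and higher genes numbered 271 under quantile normalization. Lower members numbered 2 as reported, 5 under median centring, 0 without the variance trend, and 1 with no filter on low values, under quantile normalization and with Xist as a covariate. Higher members numbered 1 at an adjusted p under 0.1. With 1 sample left out, higher genes ranged from 174 to 572, lower genes from 230 to 427, higher members from 0 to 2 and lower members from 1 to 2. Both higher members, Dync2h1 and Kif1c (0.35, adjusted p = 0.0445), were called without wild type 4. The median difference under median centring was -0.074 for tubulins, -0.095 for kinesins and -0.10 for dyneins, and -0.062 for kinesins with the GC trend removed. Centring lowers every value by construction, and the cause of the other shifts was not tested.

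Members that changed sign all had differences that were not called. Under median centring Dynlrb1 was at -0.041, Kif13b at -0.015, Kif3a at -0.052, Kif5c at -0.032, Klc1 at -0.089, Tuba1b at -0.042, Tubb3 at -0.033, Tubb4b at -0.080 and Tubg2 at -0.074. Under quantile normalization Kif17 was at -0.036, Kif22 at -0.0069, Kif3c at 0.022, Tuba1a at 0.036, Tube1 at -0.034 and Tubg2 at -0.043. With the GC trend removed Kif3a was at -0.023, Klc1 at -0.045, Tubb4b at -0.035 and Tubg2 at -0.030, and with Xist as a covariate Klc1 was at -0.0039.

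With 1 sample left out, differences ranged from -0.0028 to 0.31 for Dync2li1, -0.029 to 0.14 for Dynlrb1, -0.020 to 0.020 for Klc1, -0.00028 to 0.16 for Kif13b, -0.025 to 0.019 for Kif1b, -0.064 to 0.049 for Kif21b, -0.0051 to 0.40 for Kif11 and -0.14 to 0.069 for Kif9. They ranged from -0.054 to 0.044 for Tuba1a, -0.0019 to 0.094 for Tuba1b, -0.27 to 0.039 for Tuba1c, -0.041 to 0.067 for Tubb4b, -0.0068 to 0.30 for Tube1, -0.10 to 0.074 for Tubg1 and -0.050 to 0.090 for Tubg2.

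Numbers 1, 3 and 4 occur in both groups, and whether they pair the samples was not settled. Deviations of same-numbered samples correlated at 0.081, 0.041 and 0.058, but differently numbered samples were not compared. A replicate block on these numbers, fitted to the 6 samples that share them, gave 326 higher and 345 lower genes and 2 lower members, Tubb2b and Kif23 (adjusted p = 0.0430). The same 6 samples with no replicate block gave 180 higher and 267 lower genes and 1 lower member. In both of these 6-sample fits Kif21b was at 0.073, Tuba1a at 0.010, Tuba1b at -0.012 and Tubg1 at 0.13.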
